A study of Mus musculus with 60 samples.

Results

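Among 40 prefrontal cortex libraries from drug-treated mice, 11 were rich and 14 were poor in RNA of genes that mark the olfactory bulb, and the other 15 lay between. The 25 libraries at the ends, of 60 in the series, are described here by the genes that went along with the difference. They were chosen from measured values: the mean log2(value + 1) of Cdhr1, Doc2g, Eomes, Shisa3, Tbx21, Th and Trh was at least 8.5 in bulb-rich libraries and at most 6 in bulb-poor ones. Th makes dopamine in periglomerular cells, Tbx21 and Eomes are T-box transcription factors of mitral and tufted cells, Trh encodes thyrotropin-releasing hormone and Cdhr1 a cadherin-related protein of mitral cells. The classes are not groups of the study, so what follows describes which other genes accompany these 7, and the 7 are left out of every count below.

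Mice were C57BL/6J of both sexes, heterozygous for the K228E allele of Tbr1 (HT) or wild type (WT), and were studied at postnatal day 25. Lithium, fluoxetine or vehicle had reached the pups through the milk of their mothers from day 3 to day 24. Each of the 12 combinations of genotype, treatment and sex has 5 libraries. Litters, dams and batches are not given in the labels, so pups of 1 litter may share a group, and a p-value here weighs no more than the spread among the libraries at hand.

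All 11 bulb-rich libraries came from lithium-treated mice, 4 HT and 7 WT, 4 female and 7 male. Of the 14 bulb-poor libraries, 11 came from fluoxetine-treated mice (5 HT and 6 WT) and 3 from lithium-treated mice, all 3 HT (female replicates 4 and 5 and male replicate 3). No fluoxetine library was bulb-rich. With drug in the model, the difference between classes therefore rests on 11 lithium libraries against 3, and class and drug cannot be told apart for the other 11 bulb-poor libraries. For that reason the 3 bulb-poor lithium libraries and the 11 bulb-poor fluoxetine libraries are given apart for most genes. Where values are given for bulb-poor libraries without a drug, they cover all 14. The 20 vehicle libraries, which the split did not use, serve as a comparison outside it. The gene lists were chosen with earlier results of these data known, so that comparison is not an independent test of them.

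The olfactory bulb is the first relay of smell in the brain. Sensory axons from the nose end there on mitral and tufted cells, which are glutamatergic and send the signal on to cortex. Most other bulb neurons are GABAergic: periglomerular cells surround the sensory terminals, and granule cells lie deeper. Both kinds go on arriving after birth as neuroblasts that migrate from the ventricular wall, and ensheathing glia wrap the incoming sensory axons. The bulb lies directly in front of the frontal cortex in the mouse.

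The 7-gene mean ran from 8.84 to 10.4 in the bulb-rich libraries (median 9.62) and from 3.27 to 5.97 in the bulb-poor ones (median 4.36). The 3 bulb-poor lithium libraries stood at 5.97 and 5.88 (HT females 4 and 5) and 3.27 (HT male 3), and the bulb-poor fluoxetine libraries at 3.85 to 5.96. Just inside the upper limit was WT lithium male replicate 4 at 8.84, and just outside it HT lithium female replicate 1 at 8.45. Just inside the lower limit was HT lithium female replicate 4 at 5.97, and just outside it HT fluoxetine female replicate 1 at 6.55. In linear values Cdhr1 ranged from 2200 to 7170 in the bulb-rich libraries and from 24.2 to 254 in the bulb-poor ones, and Eomes from 342 to 1020 in the bulb-rich and from 1.1 to 37.9 in the bulb-poor ones. Vehicle libraries reached higher still: 16 of 20 lay at 8.5 or more, 1 lay at 6 or less, and their range was 5.13 to 11.1.

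**Figure D1:**
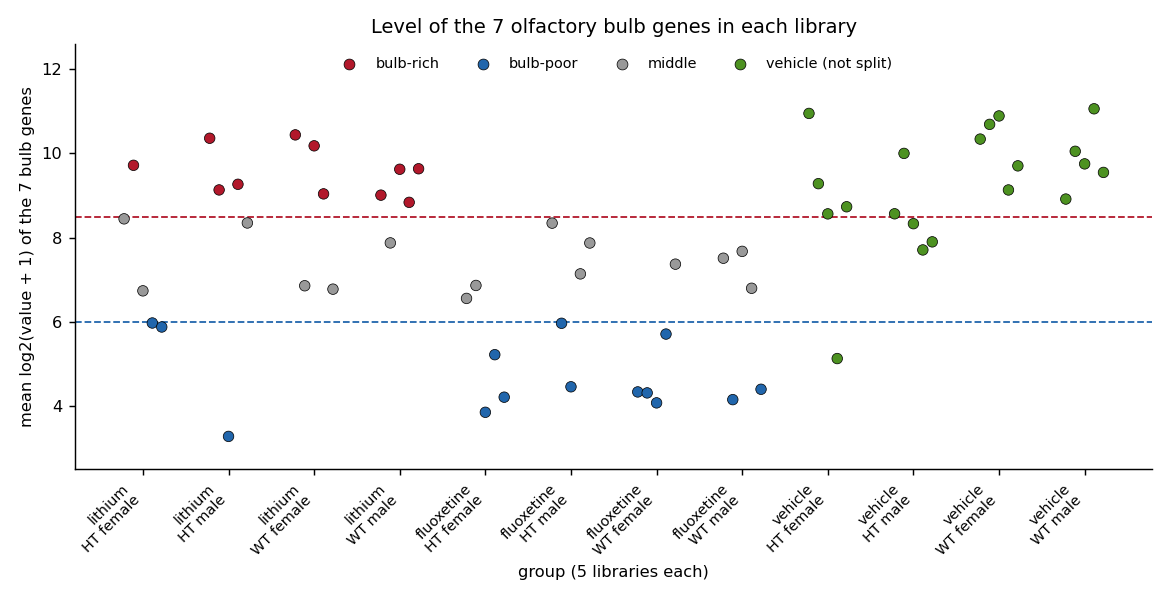
Mean log2(value + 1) of the 7 bulb genes (vertical axis) in each library of the 12 groups (horizontal axis); each point is 1 library and the dashed lines mark the limits of 8.5 and 6. The 11 bulb-rich libraries are all from lithium groups, and 3 lithium libraries, all HT, lie below the lower limit.

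Library totals were 24388174 to 35561438 reads (median 30249492) in bulb-rich libraries. They were 24693257 to 27712908 in the 3 bulb-poor lithium libraries and 24577374 to 32945712 in the bulb-poor fluoxetine libraries. The bulb-poor lithium totals thus all lay below the bulb-rich median, and the part of depth in the results was not tested. A striatum list (12 genes) averaged 8.87 to 9.11 on the log2 scale in bulb-rich and 8.84 to 9.1 in bulb-poor libraries, and the 3 treated libraries near 11 were all among the 15 between the limits. Mitochondrially encoded genes took 4.71% to 6.1% of values in bulb-rich libraries, 5.34% to 7.72% in the 3 bulb-poor lithium libraries and 4.82% to 5.82% in the bulb-poor fluoxetine libraries. HT lithium female replicate 5 held the 7.72% and stood apart from its group; the part of RNA quality in the results was not tested.

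Tbr1, the targeted gene and a T-box factor of deep-layer cortical neurons, was read in every library, and the values do not tell the 2 alleles apart. It ranged from 1860 to 4290 (median 2840) in bulb-rich libraries, against 4170, 4390 and 4600 in bulb-poor lithium libraries and 3630 to 5240 (median 3840) in bulb-poor fluoxetine libraries. The fitted difference, bulb-rich minus bulb-poor, was -0.36 on the log2 scale (SE 0.16; limma adjusted p = 0.0795), which did not pass the threshold. Across vehicle libraries Tbr1 fell as the 7-gene mean went up, with a slope of -0.41 log2 units per log2 unit (SE 0.075; limma adjusted p = 0.000336). Its 4 lowest vehicle values, 845, 1167, 1197 and 1644, belonged to the 4 vehicle libraries with the highest 7-gene means.

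Of 17209 genes tested, 5437 (31.6%) differed between bulb-rich and bulb-poor libraries at a limma adjusted p below 0.05, 2577 higher (15%) and 2860 lower (16.6%). This count describes the split and is not a test of it. In the vehicle libraries, 8701 of 17186 genes (50.6%) followed the 7-gene mean, 4302 with a positive slope (25%) and 4399 with a negative one (25.6%). Of the 2572 genes higher in bulb-rich libraries and also tested in vehicle, 1855 (72.1%) had a called positive slope there and 19 a called negative one. The 1855 are 43.7% of the genes with a positive vehicle slope that were tested in both. Of the 2843 lower genes, 2225 (78.3%, or 50.7% of those with a negative vehicle slope) had a called negative slope and 6 a called positive one. List counts below stand beside 15% higher and 16.6% lower between classes, and 25% positive and 25.6% negative in vehicle. Counts near these shares are not read as traits of a cell type. In bulk RNA, fewer cells of a type and less RNA per cell cannot be told apart.

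Higher and lower genes differed in size. Across all 40 treated libraries, 6972 of 17465 genes (39.9%) followed the 7-gene mean, 3130 with a positive slope (17.9%) and 3842 with a negative one (22%). Of the 3130, 165 had a slope of 0.3 or more, whereas 1 of the 3842 went below -0.3. The lowest such slope was -0.38. The steep slopes were seen in vehicle libraries too. Of the 15 genes at 0.8 or more in treated libraries, 15 were called with a positive vehicle slope (median 0.98), and of the 60 at 0.5 or more, 59 were. Of the 165 genes, 112 passed the filter on low values in fluoxetine libraries alone, as did 37 of the 60. The others needed their lithium values to be kept, so the difference in size is a description and no test. Lithium libraries alone gave 6493 called genes of 17041 (38.1%), 2999 positive (17.6%) and 3494 negative (20.5%). Fluoxetine libraries alone, whose 7-gene means span 3.85 to 8.34, gave 1826 called genes of 16955 (10.8%), 658 positive (3.88%) and 1168 negative (6.89%). Of their 657 positive ones tested in vehicle, 619 (94.2%) were also positive there, and of their 1167 negative ones, 1103 (94.5%) were also negative.

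**Figure D2:**
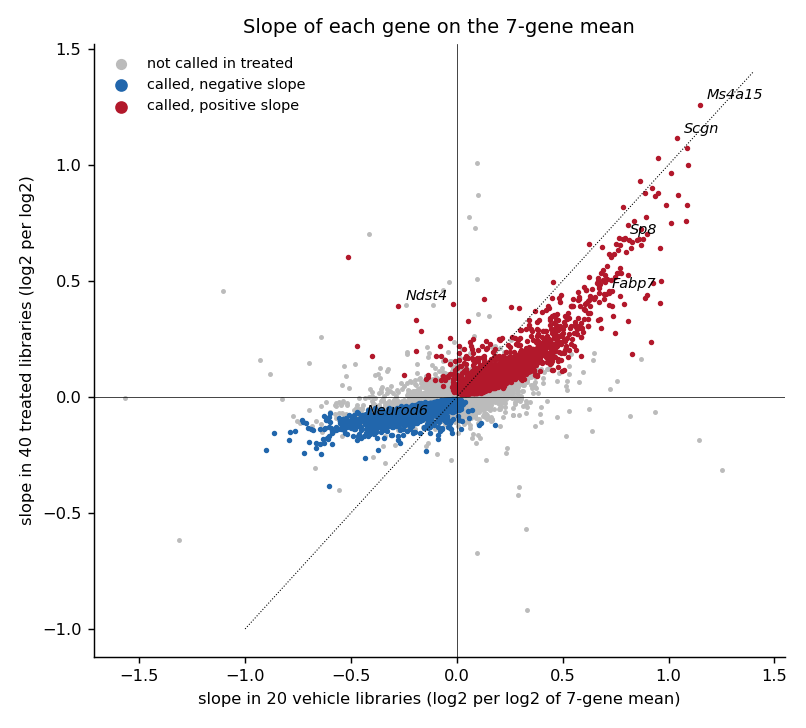
Slope of each gene on the 7-gene mean in the 20 vehicle libraries (horizontal) and the 40 treated libraries (vertical), both in log2 units per log2 unit; each point is a gene and the dotted line marks equal slopes. Called positive slopes reach past 1 on both axes, whereas called negative slopes in treated libraries stop at -0.38.

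Periglomerular markers went with the 7 genes. Scgn (ENSMUSG00000021337, chromosome 13, 23953456 to 23991214, GRCm38), which encodes the calcium-binding protein secretagogin of bulb interneurons, ranged from 84.6 to 442 (median 188) in bulb-rich libraries. It stood at 16.8, 27.5 and 1.1 in bulb-poor lithium libraries and at 1.1 to 19.6 (median 3.49) in bulb-poor fluoxetine libraries, so the classes did not overlap. The difference was 4.42 (SE 0.71), and the vehicle slope was 1.04 (limma adjusted p = 1.9e-14).

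Sp8 (ENSMUSG00000048562, chromosome 12, 118846329 to 118852576), a zinc-finger factor needed for periglomerular interneurons, ranged from 351 to 1160 (median 550) in bulb-rich libraries. Its values were 75.6, 84.6 and 19.8 in bulb-poor lithium and 61.3 to 143 (median 69.3) in bulb-poor fluoxetine libraries, again with no overlap. Its difference was 3.79 (SE 0.37) and its vehicle slope 0.78 (limma adjusted p = 3.3e-12). Calb2, the calcium-binding protein calretinin, ranged from 2050 to 5750 (median 3120) in bulb-rich libraries, against 774, 578 and 197 in bulb-poor lithium and 229 to 488 in bulb-poor fluoxetine libraries. The classes did not overlap for Calb2, and its vehicle slope was 0.82 (limma adjusted p = 5.14e-16).

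Over the 10 periglomerular genes, 7 were called higher in bulb-rich libraries (median difference 1.96, against -0.01 over all genes tested), and 9 had a called positive vehicle slope (median 0.57, against 0.0044 over all genes). The dopamine transporter Slc6a3 (40.3 to 123 in bulb-rich, 4.8, 6.59 and 5.49 in bulb-poor lithium and 4.39 to 30.2 in bulb-poor fluoxetine libraries) went with Th, while Etv1, Ddc and Gch1 were not called between classes (0.17, 0.39 and 0.48). Ddc and Gch1 also serve dopamine synthesis, and their vehicle slopes of 0.14 and 0.20 passed the threshold.

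Granule-cell and other GABAergic bulb genes were higher as a whole list: 14 of 14 were called higher in bulb-rich libraries (median difference 1.58) and 13 of 14 had a called positive vehicle slope (median 0.50). Pbx3, a homeodomain factor, ranged from 881 to 2360 in bulb-rich libraries, against 282, 309 and 156 in bulb-poor lithium and 182 to 328 in bulb-poor fluoxetine libraries. The interneuron homeobox gene Dlx2 ranged from 350 to 846 in bulb-rich libraries, against 139, 113 and 87.8 in bulb-poor lithium and 114 to 167 in bulb-poor fluoxetine libraries. Prokr2, the receptor through which prokineticin guides bulb neuroblasts, ranged from 308 to 952 in bulb-rich libraries, against 137, 93.4 and 24.2 in bulb-poor lithium and 101 to 203 in bulb-poor fluoxetine libraries. All 3 genes kept the classes apart without overlap, and their vehicle slopes were 0.69, 0.54 and 0.67. Gad1 and Gad2, the GABA-synthesising enzymes shared by all GABAergic neurons, differed less (0.88 and 0.43). The exception in vehicle was Tpbg, with a slope of 0.06 (limma adjusted p = 0.43). Leaving out any 1 library left 14 of 14 granule-list genes and 7 or 8 of 10 periglomerular genes called higher between classes.

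Neuroblast genes went the same way, with 9 of 10 called higher (median difference 1.01) and 8 with a positive and 1, Islr2, with a negative vehicle slope. Dcx, the microtubule protein of migrating neurons, ranged from 3280 to 7870 in bulb-rich libraries, against 1810, 2020 and 1330 in bulb-poor lithium and 1500 to 2150 in bulb-poor fluoxetine libraries. Igfbpl1 differed more, by 4.46 (SE 0.60), in part because HT lithium male replicate 3 held it at 1.1 while the other bulb-poor libraries held 34.1 to 111. Proliferation genes did not accompany the neuroblast genes in vehicle, where 1 of 14 had a positive and 1 a negative slope. Between the classes 3 of 14 were called higher (15% over all genes tested), or 1 without HT lithium female replicate 5. Bub1 was kept there only through its values in bulb-rich libraries and was not called. Mki67, 1 of the 3, ranged from 36.4 to 119 in bulb-rich libraries. It overlapped both the bulb-poor lithium values (56.4, 28.6 and 49.4) and the bulb-poor fluoxetine range (48.8 to 99.5).

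Mitral and tufted cells use glutamate, and their other markers split. Of 11 such genes tested, 6 had a called positive and 4 a called negative vehicle slope. Of the 11, 4 were kept in the class comparison only through their values in bulb-rich libraries, so no count or median of that comparison is read from this list. Nmb, which encodes the peptide neuromedin B, ranged from 133 to 354 in bulb-rich libraries, against 31.2, 23.1 and 11 in bulb-poor lithium and 9.31 to 24.4 in bulb-poor fluoxetine libraries. Nmb overlaps Sec11a on the same strand, and the counting may divide reads between overlapping genes. Barhl2 and Lhx5, homeobox genes, reached 67.1 and 47.8 in bulb-rich libraries and at most 3.76 and 4.8 in bulb-poor ones. Reln, whose secreted product Cajal-Retzius and other cortical cells also make, differed by 1.03. The members with negative vehicle slopes were Coch, Kcng1, Olfm3 and Adcyap1 (-0.20, -0.39, -0.25 and -0.27), so the list did not move as a block.

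Genes of olfactory sensory neurons, whose axons but not cell bodies lie in the bulb, were mixed. Omp, the marker protein of mature olfactory sensory neurons, ranged from 47.4 to 248 (median 138) in bulb-rich libraries, against 21.6, 12.1 and 7.69 in bulb-poor lithium and 4.27 to 11 in bulb-poor fluoxetine libraries. S100a5, a calcium-binding protein of the same neurons, ranged from 21.2 to 87.7 in bulb-rich libraries, against 6, 3.3 and 0 in bulb-poor lithium and 0 to 2.44 in bulb-poor fluoxetine libraries. The vehicle slopes of Omp, S100a5 and Stoml3 were 1.01, 0.95 and 0.78. Of the 10 genes of the list tested, limma called 3 with a positive and 2 with a negative vehicle slope, near the 25% and 25.6% over all genes. The positive count was 5 by edgeR, by DESeq2 and by limma at an unadjusted p below 0.05. It was also 5 by limma without HT vehicle female replicate 4 or 5. Omp, S100a5, Stoml3, Gfy and Cnga2 were kept in the class comparison only through their values in bulb-rich libraries, so no count of that comparison is read from this list. The transduction genes Gng13, Adcy3, Cnga2, Cnga4 and Ano2 were not called between classes (-0.21, -0.09, 0.40, -0.43 and -0.24). Omp shares its strand and part of its span with Capn5, and the counting may divide reads between overlapping genes.

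Genes of olfactory ensheathing glia included Fabp7, the fatty acid-binding protein of ensheathing and radial glia, at 1490 to 3620 in bulb-rich libraries, against 532, 418 and 435 in bulb-poor lithium and 365 to 785 in bulb-poor fluoxetine libraries. Its vehicle slope was 0.70 (limma adjusted p = 3.01e-08). Of the 8 genes of the list, 7 were called higher and Npy lower (-0.23), and in vehicle 6 had a positive slope and Npy a negative one. Prss56 differed by 2.12 and Ngfr by 1.31, and the Ngfr values of the classes overlapped (28.6 to 69.9 in bulb-rich, 12.1 to 35.4 in bulb-poor libraries).

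**Figure D3:**
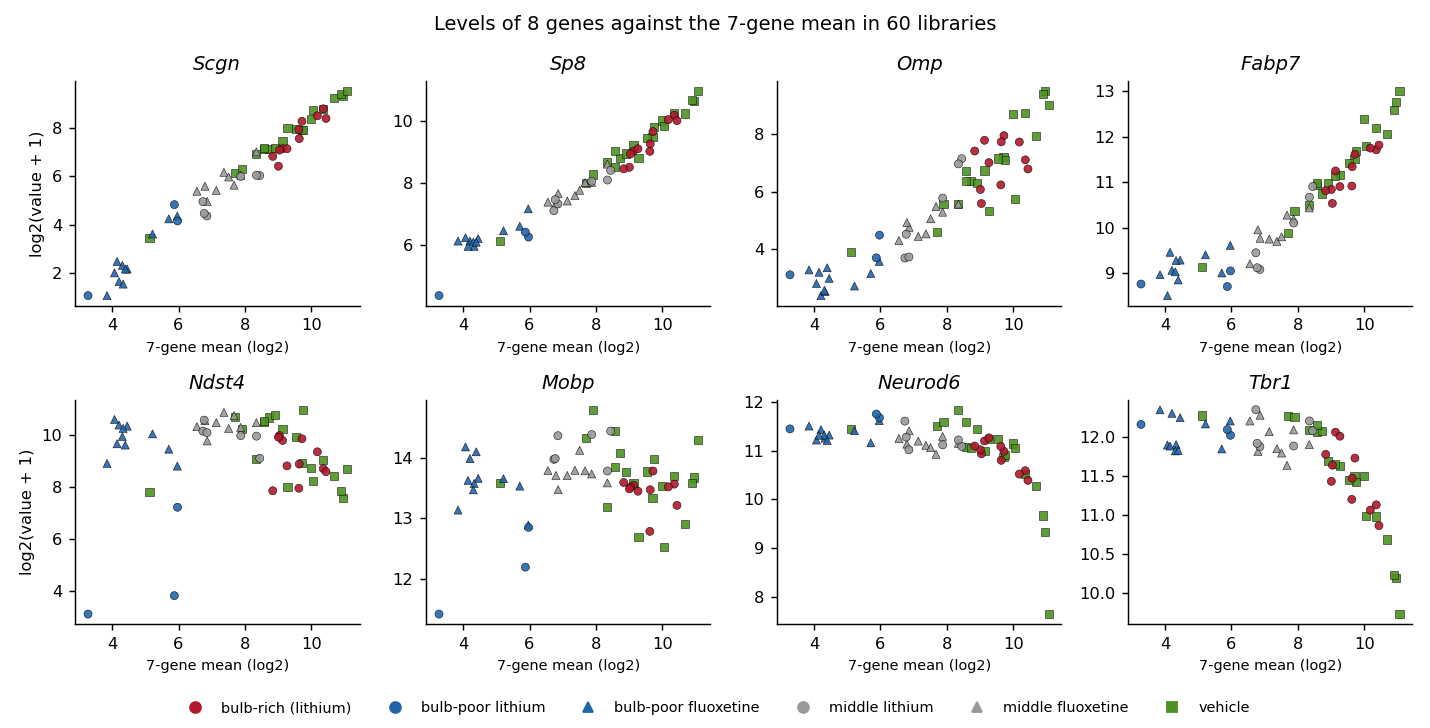
Level of 8 genes (vertical, log2(value + 1)) against the 7-gene mean (horizontal, log2) in all 60 libraries; colour gives the class and symbol shape the drug. Scgn, Sp8, Omp and Fabp7 climb with the 7-gene mean in treated and vehicle libraries alike, and Neurod6 and Tbr1 drop mainly at its upper end. Ndst4 reaches its lowest values in the bulb-poor lithium libraries. Mobp lies below every bulb-rich value in HT lithium female replicate 5 and HT lithium male replicate 3, but not in HT lithium female replicate 4.

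The 12 highest genes by the naming rule were Ms4a15, Frmd7, Igfbpl1, Scgn, Dnah11, Ndst4, Adamts19, Ppm1j, Sp8, Omp, Nmb and Rab37, with differences of 5.45 down to 3.41. For 11 of the 12 every bulb-rich library lay above all 14 bulb-poor ones, as was so for 598 genes (3.47%) of those tested. The 12 were chosen by this difference, so their separation of the classes describes the choice and is no test. Omp, 1 of the 11, was kept only through its values in bulb-rich libraries. The same 11 had a called positive slope in vehicle libraries, and 11 also did so in fluoxetine libraries alone. Ms4a15, of the membrane-spanning 4A family, ranged from 323 to 928 in bulb-rich libraries, against 31.2, 19.8 and 2.2 in bulb-poor lithium and 1.92 to 44.8 in bulb-poor fluoxetine libraries, with a vehicle slope of 1.15 (limma adjusted p = 2.11e-13). Frmd7, a FERM-domain gene mutated in congenital nystagmus in humans, ranged from 270 to 943 in bulb-rich libraries, against 33.6, 46.1 and 3.29 in bulb-poor lithium and 5.49 to 61.1 in bulb-poor fluoxetine libraries. The median of the 15 libraries between the limits lay between those of the classes for 11 of the 12 genes.

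Ndst4 was the exception. It encodes a heparan sulfate sulfotransferase (ENSMUSG00000027971, chromosome 3, 125404076 to 125728899), and its fitted difference was 4.37 (SE 0.61). It ranged from 230 to 999 (median 468) in bulb-rich libraries, against 148, 13.2 and 7.69 in bulb-poor lithium libraries but 444 to 1530 (median 975) in bulb-poor fluoxetine libraries. The 3 bulb-poor lithium libraries thus held the lowest Ndst4 values of all 60, while the fluoxetine libraries under the same lower limit had a median above that of the bulb-rich libraries. Its vehicle slope was -0.28 (limma adjusted p = 0.264), and HT vehicle female replicate 4, with the lowest 7-gene mean in vehicle (5.13), had 223.

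Myelin genes differed between the classes but were rarely called in vehicle. Of 12 oligodendrocyte genes, 11 were called higher in bulb-rich libraries (median difference 0.93) but 1 positive and 1 negative slope were called in vehicle, and 1 positive slope in the 40 treated libraries. Mbp, a major myelin protein, ranged from 25600 to 58700 (median 46500) in bulb-rich libraries, against 36100, 20000 and 13400 in bulb-poor lithium and 31900 to 59600 (median 51600) in bulb-poor fluoxetine libraries. Mobp ranged from 7050 to 14100 in bulb-rich libraries, against 7390, 4670 and 2720 in bulb-poor lithium and 7590 to 18700 in bulb-poor fluoxetine libraries. The summed level of the list was 65100 to 140000 in bulb-rich, 38000 to 85000 in bulb-poor lithium and 78700 to 149000 in bulb-poor fluoxetine libraries. Among bulb-poor lithium libraries, HT female 5 and HT male 3 lay below every bulb-rich value of Mbp and Mobp, HT female 4 lay within the bulb-rich range of both, and the bulb-rich libraries overlapped the fluoxetine ones. Without HT lithium male replicate 3, 8 of 12 were called, and without HT lithium female replicate 5, 9 of 12.

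Layer 6 and subplate genes divided between these patterns. Of 11, 6 were called higher in bulb-rich libraries (median difference 0.57), whereas in vehicle 2 had a positive and 5 a negative slope. The shares over all genes were 15% higher between classes, and 25% positive and 25.6% negative in vehicle. Nxph4 and Syt6 were the 2 with positive vehicle slopes (0.43 and 0.45). Syt6, a synaptotagmin, ranged from 1330 to 2900 in bulb-rich libraries, against 619, 600 and 256 in bulb-poor lithium and 463 to 689 in bulb-poor fluoxetine libraries. Foxp2, a forkhead factor of layer 6, ranged from 194 to 416 in bulb-rich libraries, against 168, 148 and 139 in bulb-poor lithium and 147 to 288 in bulb-poor fluoxetine libraries, with a vehicle slope of 0.09 (limma adjusted p = 0.128). Bcl11b, a factor of layer 5 neurons, ranged from 1480 to 2690 in bulb-rich libraries, against 1520, 1260 and 936 in bulb-poor lithium and 1640 to 2160 in bulb-poor fluoxetine libraries, and had a vehicle slope of 0.06 (limma adjusted p = 0.505).

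Genes of cortical projection neurons were lower in bulb-rich libraries. Of 12, 10 were called lower and 1, Bcl11a, higher (median difference -0.45), and 11 had a called negative slope in vehicle (median -0.32). Neurod6, a basic helix-loop-helix factor, ranged from 1340 to 2460 in bulb-rich libraries, against 3280, 3450 and 2800 in bulb-poor lithium and 2290 to 3150 in bulb-poor fluoxetine libraries. The bulb-rich values overlapped the fluoxetine range and lay below all 3 lithium ones, and the vehicle slope was -0.46 (limma adjusted p = 0.00909). Without HT lithium male replicate 3, 6 of the 12 were called lower between classes.

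Layer 5 and upper-layer genes gave smaller counts of the same sign. For comparison, 16.6% of all genes tested were lower and 15% higher between classes, and 25.6% had a negative vehicle slope. Of 9 layer 5 genes 5 were lower and 1 higher, and of 11 upper-layer genes 6 were lower and 2 higher, with 6 and 7 called negative slopes in vehicle. These counts leaned on single libraries: without HT lithium male replicate 3 the upper-layer count was 3, without HT lithium female replicate 2, 4 or 5 or male replicate 1 the layer 5 count was 3, and without HT vehicle female replicate 1 the upper-layer count in vehicle was 1. Crym, a thyroid hormone-binding protein, ranged from 1600 to 2620 in bulb-rich libraries, below 3610, 3250 and 2660 in bulb-poor lithium and 2670 to 2910 in bulb-poor fluoxetine libraries. Inhba, an activin subunit on the upper-layer list, ran the other way (354 to 688 in bulb-rich, 336, 235 and 248 in bulb-poor lithium and 244 to 369 in bulb-poor fluoxetine libraries), with a vehicle slope of 0.36. Cortical interneuron genes also divided. Pvalb, Sst, Lhx6 and Vip were lower (-0.68, -0.54, -0.51 and -0.66), and Ndnf and Adarb2 were higher (1.15 and 0.76), with positive vehicle slopes of 0.46 and 0.39. In all, 4 of 10 interneuron genes were called lower, or 2 without HT lithium female replicate 5.

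Of 19 excitatory synapse genes, 11 were called lower and 1, Gria1, higher (median difference -0.25), and in vehicle 15 had a negative and 2 a positive slope (median -0.15). Among all genes tested, 16.6% were lower between classes and 25.6% had a negative vehicle slope. Camk2a, the kinase subunit of excitatory synapses, ranged from 70900 to 104000 in bulb-rich libraries, against 105000, 114000 and 133000 in bulb-poor lithium and 110000 to 122000 in bulb-poor fluoxetine libraries, with no overlap. Shank3, a postsynaptic scaffold, ranged from 7040 to 9660 in bulb-rich libraries, against 10100, 9850 and 11600 in bulb-poor lithium and 8200 to 9960 in bulb-poor fluoxetine libraries. Of 12 GABAA receptor subunits 5 were called lower by limma, with 0 higher (1 higher by edgeR, by DESeq2 and at an unadjusted p below 0.05), and in vehicle 9 had a negative and 1, Gabra5, a positive slope. Gabra4 ranged from 2240 to 3320 in bulb-rich libraries, against 3540, 4430 and 4210 in bulb-poor lithium and 3040 to 3870 in bulb-poor fluoxetine libraries.

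**Figure D4:**
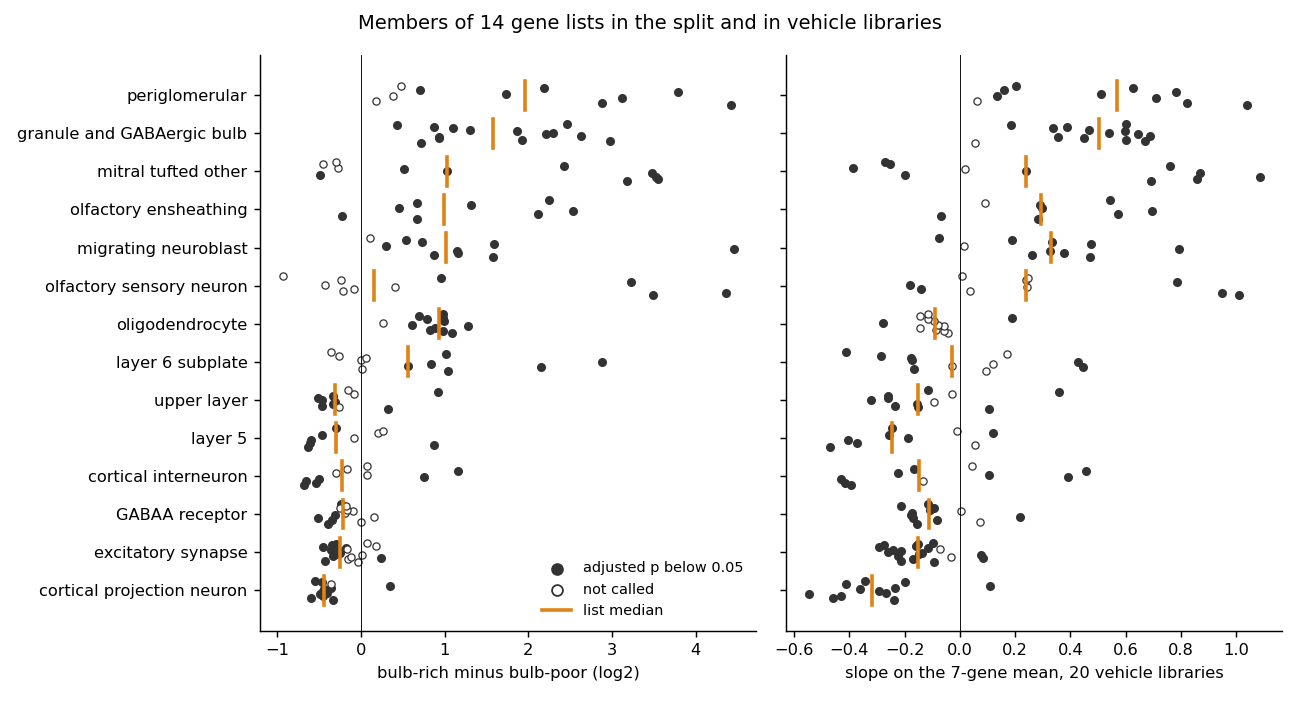
Each point is a gene of 1 of 14 lists; the left panel gives its difference, bulb-rich minus bulb-poor (log2), and the right panel its slope on the 7-gene mean in vehicle libraries. Filled points passed an adjusted p of 0.05 and the bar is the list median: oligodendrocyte genes lie right of 0 in the left panel (median 0.93) and around 0 in the right one (median -0.09). In the left panel, 4 mitral and tufted genes and 5 olfactory sensory neuron genes were kept only through bulb-rich values. No count or median of those lists is read there.

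Lists of other cells a cortical sample can hold were read in both comparisons. Over all genes tested, 15% were higher and 16.6% lower between classes, and 25% had a positive and 25.6% a negative vehicle slope. Several counts here lie near those shares. Of 12 microglia genes 1 was called lower (Aif1), and 4 had a negative slope in vehicle (2 without HT vehicle female replicate 1). Of 10 endothelial and mural genes 1 was higher and 1 lower, with 2 positive slopes and 1 negative slope in vehicle. No red-cell gene was called between classes by limma, edgeR or DESeq2, and 0 were at an unadjusted p below 0.05. Of 6 choroid plexus genes, Clic6 and Folr1 were kept in the class comparison only through their values in bulb-rich libraries. No count of that comparison is therefore read from the choroid plexus list. In vehicle, 2 of its 7 genes had a positive slope, or 0 without HT vehicle female replicate 1. Of 12 striatal genes 4 were higher and 2 lower (2 higher without HT lithium male replicate 3), with 1 positive and 6 negative slopes in vehicle. Of 6 oligodendrocyte precursor genes 3 were higher, or 1 without HT lithium female replicate 5 or male replicate 3, whereas in vehicle 3 had a negative slope. Of 3 ependymal genes 1, Foxj1, was higher. Meningeal genes were higher for 3 of 10, and for 8 of 10 in vehicle (median slope 0.14); without HT lithium male replicate 3 the count between classes was 7, without HT lithium female replicate 5 it was 1, and without HT vehicle female replicate 1 or 4 or HT vehicle male replicate 2 the vehicle count was 5. Crabp2, a retinoic acid-binding protein, ranged from 80.3 to 153 in bulb-rich libraries, against 46.8, 29.7 and 65.9 in bulb-poor lithium and 37.3 to 67.2 in bulb-poor fluoxetine libraries. The astrocyte genes Gfap and Aqp4 were higher (0.43 and 0.31), and Slc1a2 and Aldoc were lower (-0.32 and -0.27), though Slc1a2 stood at 0.073 under quantile normalization and no astrocyte gene was called higher without HT lithium female replicate 5 or HT lithium male replicate 1. In vehicle 10 of 10 astrocyte genes were called, 5 with a positive and 5 with a negative slope, and the negative count was 1 without HT vehicle female replicate 1, 2 without HT vehicle female replicate 4, and 3 without HT vehicle female replicate 5, HT vehicle male replicate 1, WT vehicle female replicate 1, 3 or 5, or WT vehicle male replicate 3 or 4. Of 13 mitochondrially encoded genes 8 were called lower in bulb-rich libraries and none had a called vehicle slope by limma or edgeR (3 by DESeq2, and 3 by limma at an unadjusted p below 0.05). Without HT lithium female replicate 5 the count between classes was 1, and without HT lithium male replicate 3 it was 5. Of 12 activity-regulated genes 1, Fosb, was higher between classes, but 8 were higher without HT lithium female replicate 4.

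The 12 lowest genes by the naming rule had smaller differences than the highest, apart from Gdf1. Gdf1, a ligand of the transforming growth factor family, had a median of 0 in bulb-rich libraries and reached 287 there, against 121, 375 and 314 in bulb-poor lithium and 0 to 498 in bulb-poor fluoxetine libraries. It shares strand and span with Cers1, so its assignment of reads is uncertain, and it was not kept for the vehicle fit. The other 11 were Glp2r, Pla2g3, Vgll3, Vmn2r84, Olfr78, Tcte1, Lrrc10b, Mirt1, Itprid1, Dnah9 and F2rl2, with differences of -1.30 to -0.87. Of these 11, 10 had a called negative slope in vehicle, and none had one in fluoxetine libraries alone by limma, the only tool run there (2 of the 12 lowest did at an unadjusted p below 0.05). Vmn2r84, which encodes a vomeronasal receptor, ranged from 41.4 to 68.1 in bulb-rich libraries, against 96, 123 and 101 in bulb-poor lithium and 78.9 to 100 in bulb-poor fluoxetine libraries, and was the 1 gene of the 12 without overlap; of all genes tested, 420 (2.44%) had every bulb-rich library below all 14 bulb-poor ones. Pla2g3, a secreted phospholipase, ranged from 79.4 to 205 in bulb-rich libraries, against 161, 237 and 262 in bulb-poor lithium and 82.6 to 128 in bulb-poor fluoxetine libraries. Its highest values were those of 2 bulb-poor lithium libraries, and its vehicle slope was -0.06 (limma adjusted p = 0.479).

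The slopes themselves differed between treatments for part of the genes. Of 17774 genes, 4462 (25.1%) had a different slope in vehicle than in treated libraries at a limma adjusted p below 0.05, 1852 more positive (10.4%) and 2610 more negative (14.7%) in vehicle. The 2 sets cover different stretches of the 7-gene mean, with a median of 7 in treated and 9.41 in vehicle libraries. Between lithium and fluoxetine, 918 of 17465 genes (5.26%) differed, 593 (3.4%) more positive and 325 (1.86%) more negative in lithium. Sp8 and Igfbpl1 were steeper in lithium, by 0.26 and 0.57 (limma adjusted p = 0.000104 and 0.000807).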

How the data were processed

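RNA-seq was measured in 60 prefrontal cortex libraries. Per the labels' protocols, the kit was a stranded one for mRNA; the submitters' processing notes list Salmon 0.11.2, R 3.6.0, DESeq2 1.19.11 and build GRCm38, with no role stated. In the deposited table each gene has a signal in each library, a read number divided by a size factor; 100% of values were whole multiples of their column's step (tolerance 1e-06), and totals were 23930164 to 36515331 reads. Groups come from the sample titles.

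With limma 3.58.1 (trend, two-sided) in R 4.3.3, log2(value + 1) was modelled. A gene was kept where 5 or more libraries of a fit had it at a value of 10 or above, p-values were adjusted by Benjamini-Hochberg over all kept genes, and those below 0.05 were called. Differences are understated for low genes. Covariates were drug and genotype between classes, 4 genotype-by-sex means in vehicle and 4 drug-by-genotype means in treated libraries. The slope difference between vehicle and treated libraries used 12 group means. That between lithium and fluoxetine used the 4 drug-by-genotype means, without sex. A slope is the change in log2 level per unit of the 7-gene mean. Of 18088 identifiers, 11 had no symbol. Locations are from GENCODE M21. The fits recovered known changes on data simulated with independent noise and far fewer changed genes than were called here. That setting differs from these data, so it does not vouch for the counts. No pair among 120 within groups was a duplicate (chi-square per degree of freedom at least 3.11).

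Named genes are Tbr1, the 12 highest and 12 lowest called genes with a mean of at least 50 and no predicted-gene symbol, and the 4 members of each of 26 lists with the largest difference; list members outside the 4 that are named were chosen after their values were seen. Some genes the rule takes are left out of the text. The classes, members and lists were chosen with earlier results of these data known. Alternatives were other pseudocounts, filters, normalisations, covariates, limits and subsets, a replicate block, leaving out each library, and count tests on the recovered reads (DESeq2 1.42.0 and edgeR 4.0.16). Fits of treated libraries by drug and left-out libraries there were added after seeing the data.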

Additional observations from a re-analysis of the deposited data

Results flagged for a closer look

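In groups of 5, a library was set apart where its gap to the nearest other exceeded Dixon's 95% critical value; 36 group and measure pairs were examined and chance flags about 1 in 20. HT lithium male replicate 3 had a 7-gene mean of 3.27, against 8.35 in the next library of its group (gap 0.716 of the range). The striatum list averaged 10.9 in HT lithium female replicate 1, 11 in WT lithium female replicate 2 and 10.9 in WT lithium male replicate 2, all between the limits, and 9.1 in HT fluoxetine male replicate 3. The mitochondrially encoded share was 7.72% in HT lithium female replicate 5, against 5.64% in the next library, and 5.68% in HT fluoxetine female replicate 4, against 5.11%. The 7.72% and the 7-gene mean of 3.27 belong to 2 of the 3 bulb-poor lithium libraries.

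Slopes on the 7-gene mean differed between vehicle and treated libraries for 4462 genes. Among Tbr1 and the 24 highest and lowest genes, the slope in vehicle minus that in treated libraries was called (limma adjusted p below 0.05) for Tbr1 (-0.32), Ndst4 (-0.71), Nmb (0.15), Rab37 (0.17), Glp2r (-0.41), Olfr78 (-0.29), Tcte1 (-0.36), Mirt1 (-0.18), Itprid1 (-0.51), Dnah9 (-0.16) and F2rl2 (-0.38). Ndst4 had a called positive slope in treated libraries (0.39) and no called slope in vehicle (-0.28, limma adjusted p = 0.264); the other genes with negative values had called negative slopes in both sets. Vehicle libraries extend to higher 7-gene means, which cannot be told apart from the treatment here.

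Slopes differed between lithium and fluoxetine libraries for 918 genes. Among the same 25 genes, the slope in lithium minus that in fluoxetine was called for Ms4a15 (-0.28), Igfbpl1 (0.57), Sp8 (0.26), Vmn2r84 (-0.15) and Tcte1 (-0.21). No bulb-rich fluoxetine library exists, so the ranges of the 7-gene mean differ between the drugs too.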

How the results depend on the processing

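The 5437 genes called between bulb-rich and bulb-poor libraries became 2592 in lithium libraries alone, 1157 in males alone and 2256 with limits of 9 and 5.5, which leave 1 bulb-poor lithium library. Leaving out 1 library gave 3338 (without HT lithium female replicate 5) to 5789 genes. In vehicle, 8701 became 5246 in females, 5287 in males and 5024 in HT alone, and 5785 (without HT vehicle female replicate 1) to 9562 with 1 library left out. In treated libraries, 6972 became 1826 with fluoxetine alone and 5858 to 7332 with 1 library left out. The cause of these shifts was not tested; all subsets hold fewer libraries. The other alternatives stayed within 1.5 times. With edgeR on recovered reads 5329 genes differed between classes and 8572 followed the 7-gene mean in vehicle, and with DESeq2 5513 and 8696.

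Replicate numbers did not pair libraries: deviations of same-numbered libraries correlated at a mean of 0.0045 in treated and 0.049 in vehicle libraries. The replicate block gave 4353 genes between classes, 8472 in vehicle, 6402 in treated libraries and 4310 for the slope difference.

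Between classes, the sign reversed for Slc1a2 under quantile normalization (0.073), for Vtn (-0.032), Col3a1 (-0.22) and Col1a1 (-0.063) in males alone, and for Col3a1 with limits of 9 and 5.5 (-0.12). The vehicle slope reversed for Aldoc under quantile normalization (0.023) and for Slco1a4 in WT alone (0.095). Reversals were counted only for genes called in the main fit or in the alternative. On that count, none of the named genes changed sign in either comparison with 1 library left out. Genes called in neither fit were not counted. Among them, the red-cell median between classes went from -0.158 to 0.0035 without HT lithium male replicate 3. The interaction of class and drug, a fluoxetine-only and a WT-only comparison of classes could not be fitted, since no fluoxetine library was bulb-rich and no WT lithium library was bulb-poor.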
